A study of Mus musculus with 12 samples.

Results

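The terminal complement components are the plasma proteins that build the membrane attack complex, and 6 of their genes were followed here across 3 groups of mouse livers: Hc, C6, C8a, C8b, C8g and C9. They were chosen by symbol, as the entries that carry these names in both deposited count tables, and are 6 of the 25164 genes listed. Liver RNA was sequenced from 12 mice, with 4 libraries per group. HFD plus fenofibrate mice were kept on a high-fat diet for 14 weeks and were given fenofibrate, a lipid-lowering activator of the nuclear receptor PPARA, by gavage in the last 4 of these weeks. HFD mice had the high-fat diet for the same time without the drug, and Control mice had 14 weeks of normal diet. The study assigned 10 mice to each group, and the labels give no strain, sex or age and mention no genetic modification. They do not mention a gavage of vehicle in the HFD or Control mice either. Cages, dissection order and sequencing runs are not given, so the p-values speak of the spread among these 12 libraries alone.

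Complement is a cascade of plasma proteins, most of them made and secreted by hepatocytes. Its classical, lectin and alternative arms meet at C3 and then at C5, encoded in the mouse by Hc. Cleavage of C5 releases the inflammatory peptide C5a and leaves C5b, which binds C6 and then C7. This complex takes up C8, a protein of an alpha, a beta and a gamma chain encoded by C8a, C8b and C8g, and the beta chain joins C8 to the growing complex while the alpha chain enters the membrane. Several C9 molecules then close the pore. C7 was not among the 6 chosen genes, and its values are given beside them.

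The 6 genes lie at 4 sites on GRCm38, the build that the deposited positions match. C8b (chr4:104766317-104804548, plus strand) and C8a (chr4:104815679-104876398, minus strand) stand 11.1 kb apart with their 3′ ends facing. C6 (chr15:4727175-4815456, plus strand), C7 (chr15:4988762-5063773, minus strand) and C9 (chr15:6445327-6498751, plus strand) share a chromosome. Hc (chr2:34983331-35061438, minus strand) and C8g (chr2:25498651-25501719, minus strand) lie on chromosome 2. C8g overlaps the oppositely directed gene Fbxw5 by 0.97 kb. Whether reads were counted by strand is not stated in the labels or the tables, so C8g values are less certain than those of the other 5 genes.

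The 250 bases before the start site of C9, C8a, C8b and Hc are shown because C9 and C8a had the smallest adjusted p against HFD, C8b is the neighbour of C8a, and Hc had the smallest change of the genes that fell with the drug. They were taken from RefSeq on GRCm38.p6 and read 5′ to 3′ on the strand of the gene, and capitals mark motif matches. The RefSeq start lies 26 bases inside the deposited gene position for Hc, 19 for C9 and 35 for C6. Distances below are counted from the RefSeq start. The windows are chr15:6445096-6445345 (plus strand) for C9, chr4:104876399-104876648 (minus strand) for C8a, chr4:104766067-104766316 (plus strand) for C8b and chr2:35061413-35061662 (minus strand) for Hc.
C9: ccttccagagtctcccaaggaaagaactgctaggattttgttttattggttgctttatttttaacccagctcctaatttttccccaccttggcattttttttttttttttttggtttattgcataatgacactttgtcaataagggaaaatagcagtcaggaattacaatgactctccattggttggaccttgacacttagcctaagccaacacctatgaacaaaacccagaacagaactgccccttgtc
C8a: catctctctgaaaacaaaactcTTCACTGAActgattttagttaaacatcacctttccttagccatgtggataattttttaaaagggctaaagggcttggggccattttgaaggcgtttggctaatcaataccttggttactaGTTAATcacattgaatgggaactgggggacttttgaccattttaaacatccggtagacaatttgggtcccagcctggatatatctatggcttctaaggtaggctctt
C8b: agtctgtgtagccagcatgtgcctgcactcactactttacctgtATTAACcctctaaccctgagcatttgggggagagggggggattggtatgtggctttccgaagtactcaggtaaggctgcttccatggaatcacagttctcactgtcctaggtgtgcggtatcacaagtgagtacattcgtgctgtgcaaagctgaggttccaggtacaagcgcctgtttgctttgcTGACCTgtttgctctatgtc
Hc: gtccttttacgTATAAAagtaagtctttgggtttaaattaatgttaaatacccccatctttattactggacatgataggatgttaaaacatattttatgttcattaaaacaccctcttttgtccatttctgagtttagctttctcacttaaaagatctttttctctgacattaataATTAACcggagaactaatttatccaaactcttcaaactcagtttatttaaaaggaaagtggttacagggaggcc
All 6 genes matched the RefSeq promoter table, and 300 bases of each were searched on both strands, from 250 before to 50 after the start. The HNF1 core GTTAAT stood 107 bases before the start of C8a, and on the opposite strand 206 bases before that of C8b and 74 before that of Hc. These 3 of 6 windows compare with 7.1% of the 32851 promoters in the table. AGGTCA, a single nuclear receptor motif, stood 40 bases before the start of C6 and, on the opposite strand, 20 before that of C8b, and 16.26% of all promoters hold it. The STAT motif TTCNNNGAA stood 228 bases before the start of C8a (8.3% of all promoters), and TATAAA stood 239 before that of Hc (13.62%). No window of the 6 held TTGCNCAA for C/EBP (2.94% of all promoters), TGTTTAC for FOXA (3.65%) or the direct repeat of AGGTCA with 1 base between (0.04%), which HNF4 and PPARA with RXR bind and which contains the single motif. The C9 and C8g windows held none of the 7 motifs. C8g has 2 promoters in the RefSeq table, and only the one nearest its deposited start was searched. These are matches of letters in a short window and do not show binding.

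All libraries held between 15797016 and 18514481 counts. The 6 genes together took 0.177% to 0.198% of all counts in HFD plus fenofibrate libraries, 0.254% to 0.293% in HFD libraries and 0.231% to 0.257% in Control libraries. The fenofibrate libraries therefore lay below every HFD and every Control library before any scaling other than to the total. Levels below are CPM, reads scaled to a common library size, after TMM scaling, which corrects library sizes for differences in composition, as mean ± SD with n = 4 libraries per group. Summed over the 6 genes, the level was 1746 ± 183 CPM in HFD plus fenofibrate, 2842 ± 172 CPM in HFD and 2595 ± 209 CPM in Control. In whole liver RNA, fewer cells of a type and less RNA per cell cannot be told apart.

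Some fenofibrate libraries carried transcripts of other tissues. Pancreatic acinar markers (10 of 10 listed) had a sum of 2009 CPM in fenofibrate library 1. Libraries 2 to 4 of that group had 9.02 to 13.9 CPM, against 18.2 to 31.1 CPM in HFD, where 7 of the 10 were at 0, and 6.24 to 9.92 CPM in Control, where 8 were at 0. Striated muscle markers, of which 6 of 7 were listed, summed to 198 and 160 CPM in fenofibrate libraries 1 and 3 and to at most 0.906 CPM in any other library, and Ckm, Myh1 and Myh4 were at 0 in HFD and Control. Erythroid markers (6 of 6 listed) had a sum of 1186 CPM in fenofibrate library 1 and of 202 to 397 CPM in libraries 2 to 4 of that group, against 390 to 451 CPM in HFD and 237 to 484 CPM in Control. Their part in the results was not tested, but the main counts are also given without fenofibrate libraries 1 and 3. Hepatocyte markers, of which 9 of 10 were listed and none was at 0, summed to 113919 to 131458 CPM in HFD plus fenofibrate, 119924 to 130715 CPM in HFD and 128801 to 140665 CPM in Control, so the tissue label fits its markers, and the fenofibrate and HFD ranges overlapped. B and plasma cell markers (6 of 6 listed, none at 0) summed to 21.1 to 31.7 CPM in HFD plus fenofibrate, 38.9 to 51.9 CPM in HFD and 18.4 to 37.8 CPM in Control, and their part in the results was not tested. These sums are scaled to total counts only.

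The first comparison set drug-treated against untreated livers on the high-fat diet. Of the 6 genes, 5 fell (C9, C8g, C8a, C8b and Hc), 0 rose and C6 did not pass the test. Among all 13477 genes tested, 6.59% fell and 6.89% rose. Adjusted p-values come from the quasi-likelihood test of edgeR, adjusted by Benjamini-Hochberg over all genes tested, with 0.05 as the threshold, and log2 fold changes are given ± SE. The median log2 fold change of the 6 genes was -0.66, beside 0.01 for all genes tested. In the 5 genes that fell, the groups did not overlap, and 10.3% of all genes tested had every fenofibrate library below every HFD library.

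**Figure D1:**
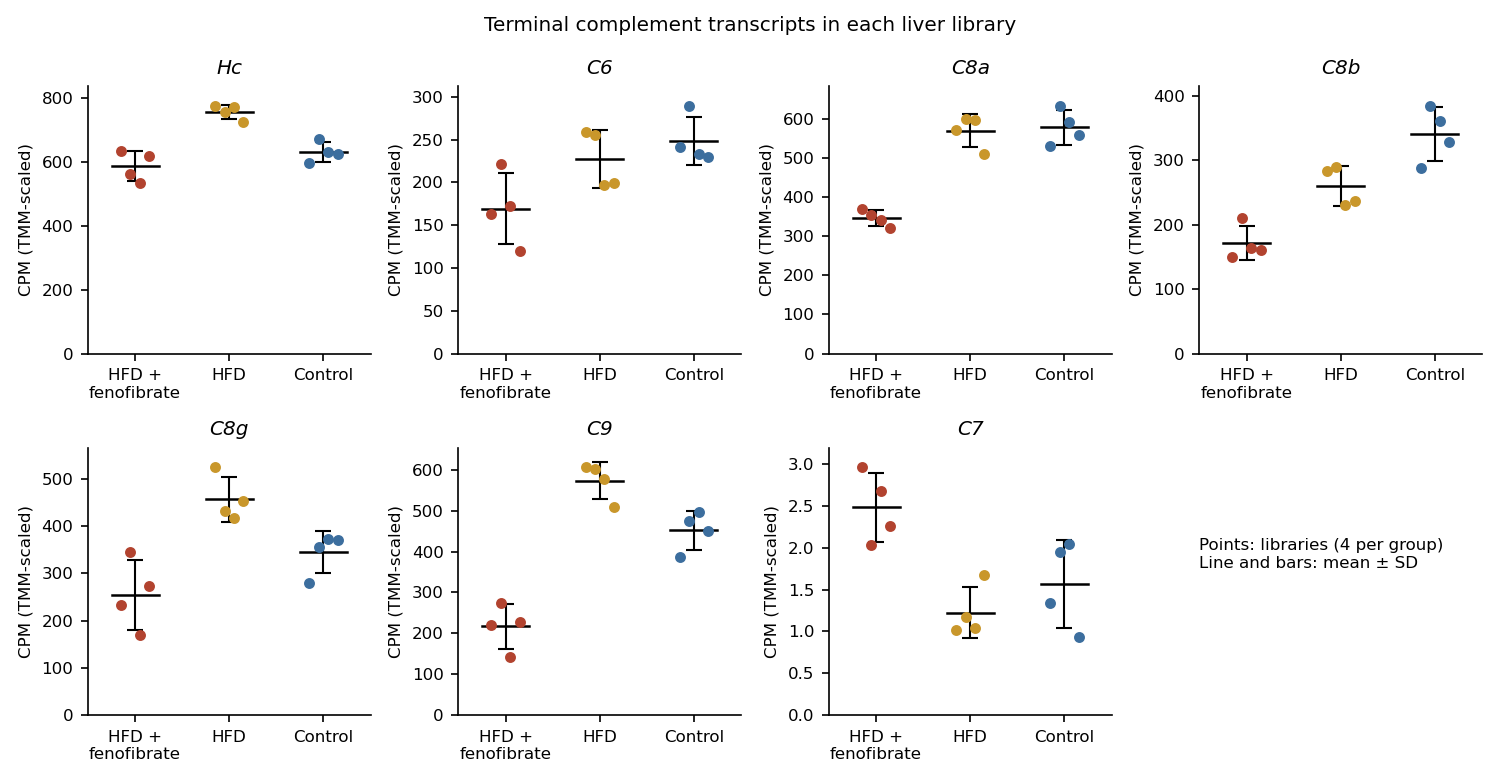
Levels of the 6 genes and C7 in each library, in TMM-scaled CPM on linear axes that start at 0, with HFD plus fenofibrate, HFD and Control from left to right, points for libraries and lines with bars for the mean ± SD of 4 libraries. The C9 panel shows the widest gap, with fenofibrate libraries at 143 to 275 CPM and HFD libraries at 508 to 606 CPM.

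C9, the pore-forming last component, showed the largest change of the 6. It stood at 221, 275, 143 and 227 CPM in HFD plus fenofibrate libraries 1 to 4, at 606, 601, 576 and 508 CPM in HFD libraries and at 387, 475, 497 and 450 CPM in Control libraries. The 3 groups occupied separate ranges, with fenofibrate lowest and HFD highest. Means were 217 ± 54.8 CPM in HFD plus fenofibrate, 573 ± 45.3 CPM in HFD and 452 ± 47.9 CPM in Control. C9 fell by 1.40 ± 0.16 on the log2 scale with fenofibrate (adjusted p = 0.000244), to 0.378 times the HFD level. It was also the only one of the 6 that the authors' deposited table marks as significant, at a fold of 0.377 and an adjusted p of 2.5e-14. The genes marked in the authors' deposited table for this comparison have a log2 fold change of at least 1.002 in size.

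The 3 chains of C8 come from separate genes, and all 3 fell. C8a, the chain that enters the membrane, stood at 369, 354, 341 and 321 CPM in HFD plus fenofibrate, at 572, 599, 596 and 510 CPM in HFD and at 529, 633, 592 and 559 CPM in Control. HFD and Control overlapped, and every fenofibrate library lay below both. C8a fell by 0.72 ± 0.10 on the log2 scale (adjusted p = 0.000646), with means of 346 ± 20.2 CPM in HFD plus fenofibrate and 569 ± 41.3 CPM in HFD. C8b, the chain that binds C5b, C6 and C7, stood at 150, 210, 164 and 161 CPM in HFD plus fenofibrate, at 284, 290, 230 and 236 CPM in HFD and at 288, 384, 361 and 329 CPM in Control. Fenofibrate library 2 came nearest to the HFD range, and 3 of 4 Control libraries lay above every HFD library. C8b fell by 0.60 ± 0.13 (adjusted p = 0.00863).

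C8g encodes the gamma chain, a lipocalin that is linked to the alpha chain and is not needed to form the pore. It stood at 232, 346, 169 and 273 CPM in HFD plus fenofibrate, at 524, 433, 416 and 452 CPM in HFD and at 279, 357, 372 and 371 CPM in Control. Fenofibrate libraries lay below every HFD library and were the most scattered of the 3 groups, and HFD lay above every Control library. C8g fell by 0.84 ± 0.17 with fenofibrate (adjusted p = 0.00701). Fbxw5, the ubiquitin ligase subunit gene that overlaps it, rose by 0.54 ± 0.10 (adjusted p = 0.00409), opposite in direction to C8g, and averaged 41.7 CPM over all libraries. Without fenofibrate libraries 1 and 3 it had a log2 fold change of 0.46 (adjusted p = 0.100).

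Hc, which encodes the C5 precursor at the head of the terminal pathway, had the smallest change of those that fell. It stood at 635, 562, 535 and 619 CPM in HFD plus fenofibrate, at 775, 755, 770 and 724 CPM in HFD and at 595, 670, 631 and 625 CPM in Control. HFD was above every library of both other groups, whose ranges overlapped. Hc fell by 0.36 ± 0.09 with fenofibrate (adjusted p = 0.0182), and the adjusted p was 0.0520 without HFD library 1 and 0.0665 without fenofibrate library 3. C6, the first protein to join C5b, stood at 163, 221, 173 and 120 CPM in HFD plus fenofibrate, at 259, 255, 197 and 199 CPM in HFD and at 241, 289, 234 and 230 CPM in Control. Fenofibrate library 2 lay inside the HFD range, and the other 3 fenofibrate libraries lay below it. The log2 fold change of C6 was -0.43 ± 0.16 with a 95% interval from -0.76 to -0.09 (adjusted p = 0.0818), so a decrease of the size seen in Hc or C8b is within its interval. Without fenofibrate library 2 the adjusted p of C6 was 0.0176.

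C7 moved the other way at a far lower level. It stood at 2.96, 2.04, 2.68 and 2.27 CPM in HFD plus fenofibrate, from 34 to 60 reads, at 1.01, 1.18, 1.04 and 1.67 CPM in HFD, from 15 to 27 reads, and at 1.34, 1.95, 2.05 and 0.933 CPM in Control, from 15 to 33 reads. Every fenofibrate library lay above every HFD library, an order found in 10.4% of all genes tested. C7 rose by 1.02 ± 0.27 on the log2 scale (adjusted p = 0.0242), and its adjusted p ran from 0.0509 to 0.0698 without HFD library 1, 2 or 3 or without fenofibrate library 1 or 3. In the authors' deposited table C7 is marked significant with a fold of 2.02 and an adjusted p of 0.0081.

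Without fenofibrate libraries 1 and 3, 2 of the 6 genes fell against HFD, C9 by 1.18 ± 0.15 (adjusted p = 0.00149) and C8a by 0.75 ± 0.13 (adjusted p = 0.0140). The log2 fold changes of the 3 that no longer passed were -0.48 for C8b (adjusted p = 0.171), -0.56 for C8g (adjusted p = 0.115) and -0.35 for Hc (adjusted p = 0.157), and that of C7 was 0.81 (adjusted p = 0.267). All 7 kept their direction. Over all genes tested, 69 fell and 55 rose without these libraries, against 888 and 928 with them. The fenofibrate group is smaller in this fit, which by itself makes it harder for a gene to pass. The lower counts therefore do not show what the libraries left out contributed.

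**Figure D2:**
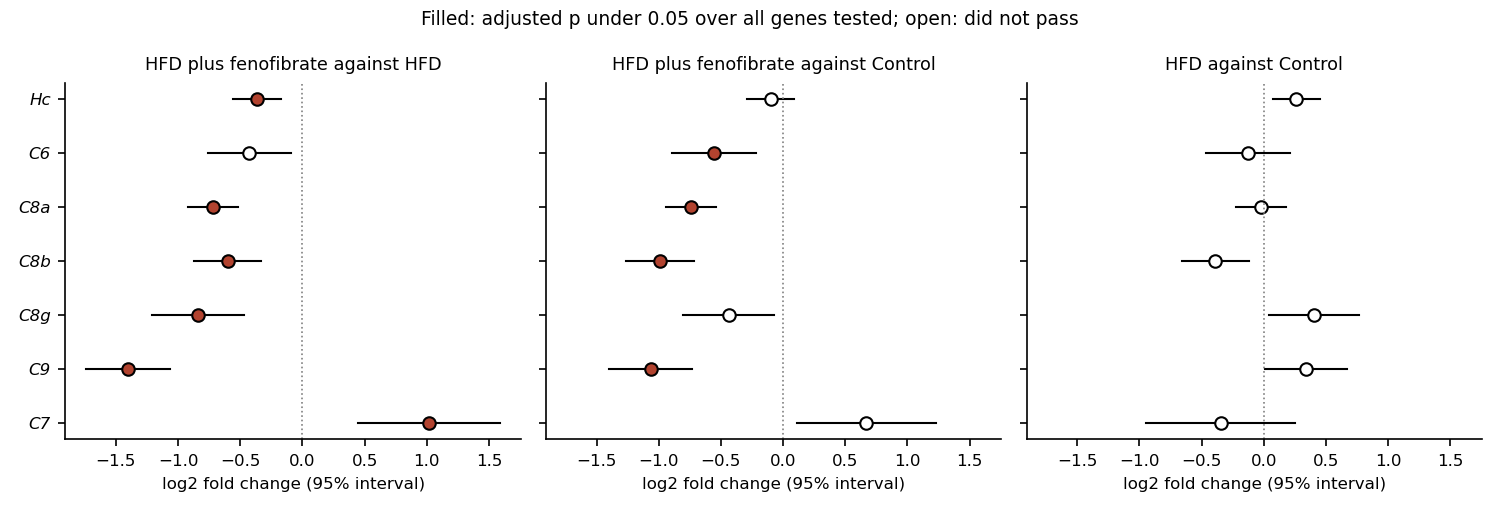
Log2 fold changes of the 6 genes and C7 in the 3 comparisons, with bars for the 95% interval and filled points for an adjusted p under 0.05. Against HFD, 5 of the 6 lie left of 0 and are filled, while C7 lies right of 0. For HFD against Control all points are open.

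The second comparison set the livers of drug-treated mice on the high-fat diet against those of mice on the normal diet. Of the 6 genes, 4 fell (C9, C8b, C8a and C6) and 0 rose, where 4.31% of all genes tested fell and 4.86% rose. The same 4 had no overlap between the groups, and 6.26% of all genes tested had every fenofibrate library below every Control library. C9 fell by 1.06 ± 0.16 on the log2 scale (adjusted p = 0.000862), C8b by 0.99 ± 0.13 (adjusted p = 0.000365) and C8a by 0.74 ± 0.10 (adjusted p = 0.000352). C6 fell by 0.55 ± 0.16 (adjusted p = 0.0401), with means of 169 ± 41.6 CPM in HFD plus fenofibrate and 249 ± 27.7 CPM in Control. This call is near the threshold: the adjusted p ran from 0.0556 to 0.120 without Control library 2, 3 or 4 or without fenofibrate library 1, 3 or 4, was 0.236 without fenofibrate libraries 1 and 3 together, and was 0.0587 with only the 8 libraries compared.

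Hc and C8g did not pass against Control. Hc averaged 588 ± 47.2 CPM in HFD plus fenofibrate and 630 ± 30.95 CPM in Control, a log2 fold change of -0.10 with a 95% interval from -0.29 to 0.09 (adjusted p = 0.526). C8g averaged 255 ± 74.2 CPM in HFD plus fenofibrate and 345 ± 44.5 CPM in Control, at -0.44 with an interval from -0.80 to -0.07 (adjusted p = 0.129). Fenofibrate library 2 lay inside the C8g range of Control, and without it the adjusted p was 0.0220. C7 had a log2 fold change of 0.67 ± 0.26 (adjusted p = 0.1252). The comparisons with HFD and with Control share the 4 fenofibrate libraries, so their values for a gene are not independent. C9, C8a and C8b fell in both.

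The third comparison asked what the diet changed on its own. None of the 6 genes passed edgeR's quasi-likelihood test, where 6.13% of all genes tested rose and 6.64% fell. At an unadjusted p under 0.05, 4 of the 6 were counted, with Hc, C8g and C9 higher and C8b lower in HFD, where 12.7% of all genes tested were higher and 14.2% lower at this p. DESeq2 called 1 gene higher (Hc, adjusted p = 0.00588) and 1 lower (C8b, adjusted p = 0.0339). Hc, C8g and C9 were higher in every HFD library than in every Control library, and 8.48% of all genes tested had this order. The log2 fold change was 0.26 ± 0.09 for Hc (adjusted p = 0.0696), 0.40 ± 0.17 for C8g (adjusted p = 0.142) and 0.34 ± 0.16 for C9 (adjusted p = 0.172).

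C8b averaged 260 ± 31.1 CPM in HFD and 341 ± 41.7 CPM in Control, a log2 fold change of -0.39 ± 0.13 (adjusted p = 0.0573), and the groups overlapped by the lowest Control library. C8a, its neighbour, had a log2 fold change of -0.02 with a 95% interval from -0.22 to 0.18 (adjusted p = 0.912). C6 had -0.13, with an interval from -0.46 to 0.21 (adjusted p = 0.659). The authors' deposited table gives HFD over Control folds of 1.34 for C8g, 1.28 for C9, 1.21 for Hc and 0.771 for C8b. In the authors' deposited table the adjusted p is 0.0090 for C8g, 0.014 for C9, 0.0042 for Hc and 0.026 for C8b, and it marks none of them as significant. The genes marked in the authors' deposited table have a log2 fold change of at least 1.003 in size. This comparison shares the 4 HFD libraries with the first, so a high HFD value adds to both differences.

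Within a library, the ratio of 2 genes does not depend on scaling, and the 15 ratios among the 6 genes were compared in each of the 3 contrasts. None of the 45 two-sided exact permutation tests passed after adjustment over all 45. The unadjusted p was 0.0286, the smallest that 4 against 4 libraries allow, for 6 ratios in HFD plus fenofibrate against HFD, 4 against Control and 11 in HFD against Control, and each of these has an adjusted p of 0.0612. With this smallest p, no ratio could pass by its own change, however large, unless many others also reached it. C9 was lower relative to each of the other 5 in every fenofibrate library than in any HFD library. These ratios use the same libraries in which C9 showed the largest fall of the 6, so they are no separate support for it. How often ratios of other genes separate the groups in this way was not counted. The log2 ratio of C9 differed by -1.07 to Hc, by -0.99 to C6, by -0.83 to C8b, by -0.72 to C8a and by -0.56 to C8g. Per C8b read, C9 had 1.27 ± 0.272 reads in HFD plus fenofibrate, 2.22 ± 0.195 in HFD and 1.33 ± 0.0646 in Control.

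**Figure D3:**
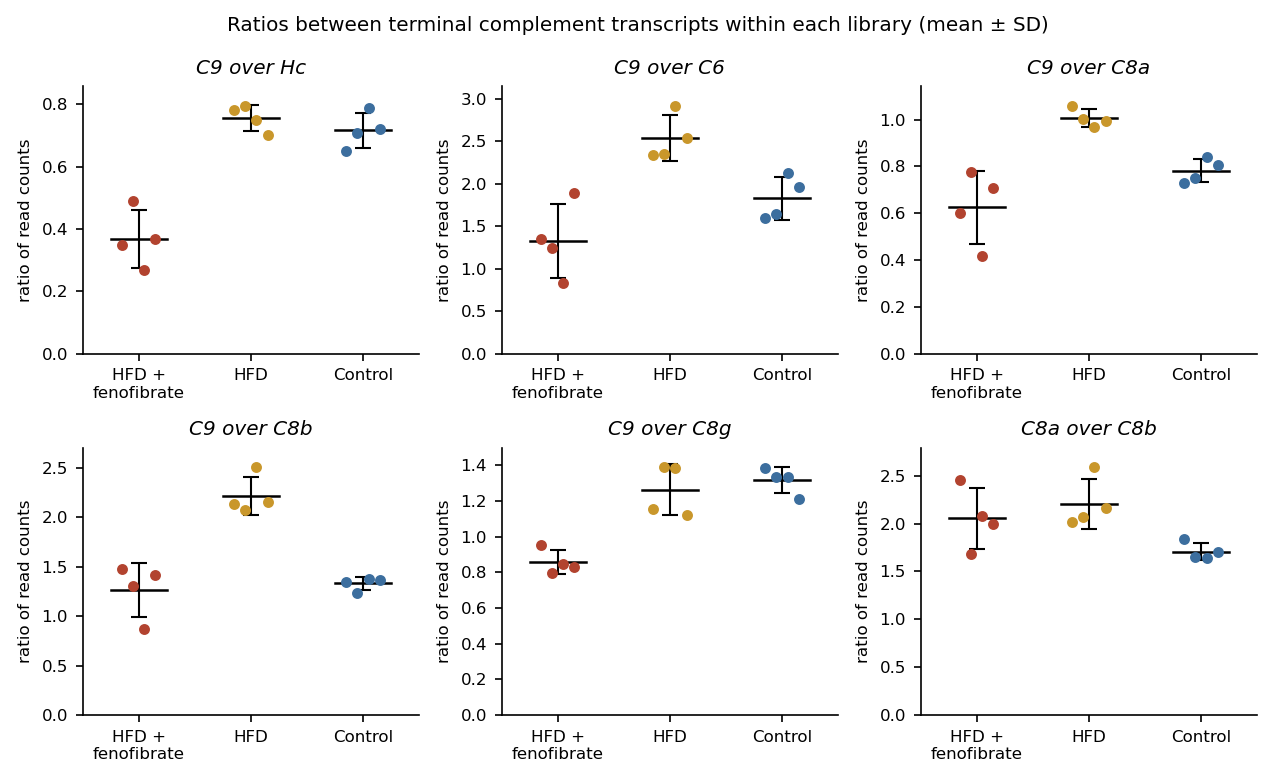
Ratios of read counts between members within each library, on linear axes that start at 0, with HFD plus fenofibrate, HFD and Control from left to right, points for libraries and lines with bars for the mean ± SD of 4 libraries. In all 5 panels with C9 on top, the fenofibrate points lie below the HFD points. In the last panel the HFD ratios of C8a over C8b lie above those of Control.

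The neighbours C8a and C8b encode chains used in equal number in C8. The ratio of their reads did not pass after adjustment in any comparison. C8a over C8b was 2.05 ± 0.316 in HFD plus fenofibrate, 2.21 ± 0.260 in HFD and 1.71 ± 0.0908 in Control. These ratios of reads are not scaled to exon length, which is 3636 bases for C8a and 2545 bases for C8b. HFD and Control did not overlap (log2 difference 0.37, exact permutation p = 0.0286, adjusted 0.0612), while fenofibrate overlapped both. The ratio of C8b to C8g differed most with the diet among the 15, with a log2 difference of -0.80 between HFD and Control and no overlap (exact permutation p = 0.0286, adjusted 0.0612). C9 and C8g kept closer company in this comparison, with C9 over C8g at 1.26 ± 0.144 in HFD and 1.32 ± 0.0741 in Control, and overlapping ranges.

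Per kilobase of exon, the 6 genes ranked among the more abundant transcripts of the liver. In HFD plus fenofibrate, C8g had the highest level with 171 ± 49.7 CPM per kb, followed by C8a with 95.2 ± 5.56, Hc with 93.8 ± 7.53, C9 with 84.7 ± 21.5, C8b with 67.3 ± 10.5 and C6 with 47.6 ± 11.7. Apart from C8g, each gene overlapped the next in this order. In HFD the order was C8g with 306 ± 31.9 CPM per kb, C9 with 224 ± 17.7, C8a with 157 ± 11.3, Hc with 121 ± 3.66, C8b with 102 ± 12.2 and C6 with 64.0 ± 9.50, and no neighbours in the order overlapped. In Control it was C8g with 231 ± 29.8 CPM per kb, C9 with 177 ± 18.7, C8a with 159 ± 12.2, C8b with 134 ± 16.4, Hc with 101 ± 4.94 and C6 with 69.9 ± 7.79, and each of the first 3 overlapped the next. By group means, only C8g stood above C9 in HFD and in Control, while C8g, C8a and Hc stood above it with fenofibrate. The order with fenofibrate did not hold in each library. C8a stood above C9 only in fenofibrate libraries 1 and 3, which carried striated muscle transcripts, and below C9 in libraries 2 and 4. Hc stood below C9 in library 2. The share of C9 in the 6 genes' summed level per kb was 14.97% ± 1.91 in HFD plus fenofibrate. This share was 23.0% ± 0.987 in HFD and 20.3% ± 0.664 in Control. Among 13468 genes ranked per kb, C9 was number 472 in HFD plus fenofibrate, 226 in HFD and 265 in Control, and C7 was number 9904 in HFD plus fenofibrate, 11321 in HFD and 10915 in Control.

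The genes most like each of the 6 in pattern were sought among 7302 genes with a mean of at least 10 CPM, by the root mean square difference in log2 CPM over the 12 libraries after centring each gene on its mean. For C9 they were Hsd11b1, which activates glucocorticoids (0.222), the aldehyde dehydrogenase Aldh1a7 (0.237) and the glycine acyltransferase Glyat (0.238), where the median over all these genes was 0.675. For C8b they were the growth factor Igf1 (0.158), the cytochrome P450 Cyp2c44 (0.159) and mt-Cytb (0.169). Cyp2c44 was also nearest to C8a (0.128), followed by Mphosph10 (0.142) and Dph3 (0.148). For C8g they were the urea cycle gene Otc (0.140), the cytochrome P450 Cyp2j6 (0.142) and Sar1b (0.142). For C6 they were the initiation factor Eif1a (0.143), the tryptophan dioxygenase Tdo2 (0.163) and Tgds (0.165). For Hc, which varied least, Gpbp1l1 was among them (0.0693). Among the 6 themselves, C8a and C8b were the closest pair (0.210) and Hc and C9 the farthest (0.524).

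The rest of the complement system was described by 2 lists, the components upstream of C5 and the regulators and receptors. In this comparison of HFD plus fenofibrate with HFD, 6.59% of all genes tested fell and 6.89% rose. Of 20 upstream components tested (22 of 23 were listed), 4 fell and 0 rose, with a median log2 fold change of -0.26. The 4 were Mbl1, a mannose-binding lectin (-0.999 ± 0.15, adjusted p = 0.00120), the collectins Colec11 (-0.75 ± 0.15, adjusted p = 0.00686) and Colec10 (-0.64 ± 0.11, adjusted p = 0.00275), and the classical-pathway protease C1s1 (-0.52 ± 0.10, adjusted p = 0.00550). Mbl1, Colec11 and Colec10 recognise sugars in the lectin arm. Mbl1 averaged 105 ± 16.2 CPM in HFD plus fenofibrate, 209 ± 26.4 CPM in HFD and 125 ± 23.5 CPM in Control. Colec11 is also in the list of 8 stellate cell and fibroblast markers, all listed and none at 0, which summed to 227 to 285 CPM in HFD plus fenofibrate, 285 to 352 CPM in HFD and 205 to 341 CPM in Control, and the part of these cells was not tested.

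Of 19 regulators and receptors tested out of 20, 6 fell and 1 rose with fenofibrate against HFD, with a median log2 fold change of -0.33. Of all genes tested, 6.59% fell and 6.89% rose. C4bp, an inhibitor of the classical and lectin arms, fell by 0.80 ± 0.14 (adjusted p = 0.00346). Cfhr2 fell by 0.78 ± 0.15 (adjusted p = 0.00451) and Cfi, the protease that cleaves C3b and C4b, by 0.50 ± 0.10 (adjusted p = 0.00611). C4bp averaged 390 ± 52.2 CPM in HFD plus fenofibrate, 678 ± 73.9 CPM in HFD and 442 ± 81.1 CPM in Control. Cfhr2 is one of several similar genes, so its reads may be shared with them. The 1 that rose was the carboxypeptidase N subunit Cpn2 (0.40 ± 0.13, adjusted p = 0.0490), named after its value was seen, and no regulator rose when fenofibrate library 1, 3 or 4 was left out, nor when HFD library 1 or 4 or Control library 3 or 4 was. Without fenofibrate libraries 1 and 3, 1 upstream component (Mbl1, -0.83) and 1 regulator fell against HFD and none of either list rose. C4bp, Cfhr2 and Cfi then had adjusted p-values of 0.0934, 0.0913 and 0.122.

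**Figure D4:**
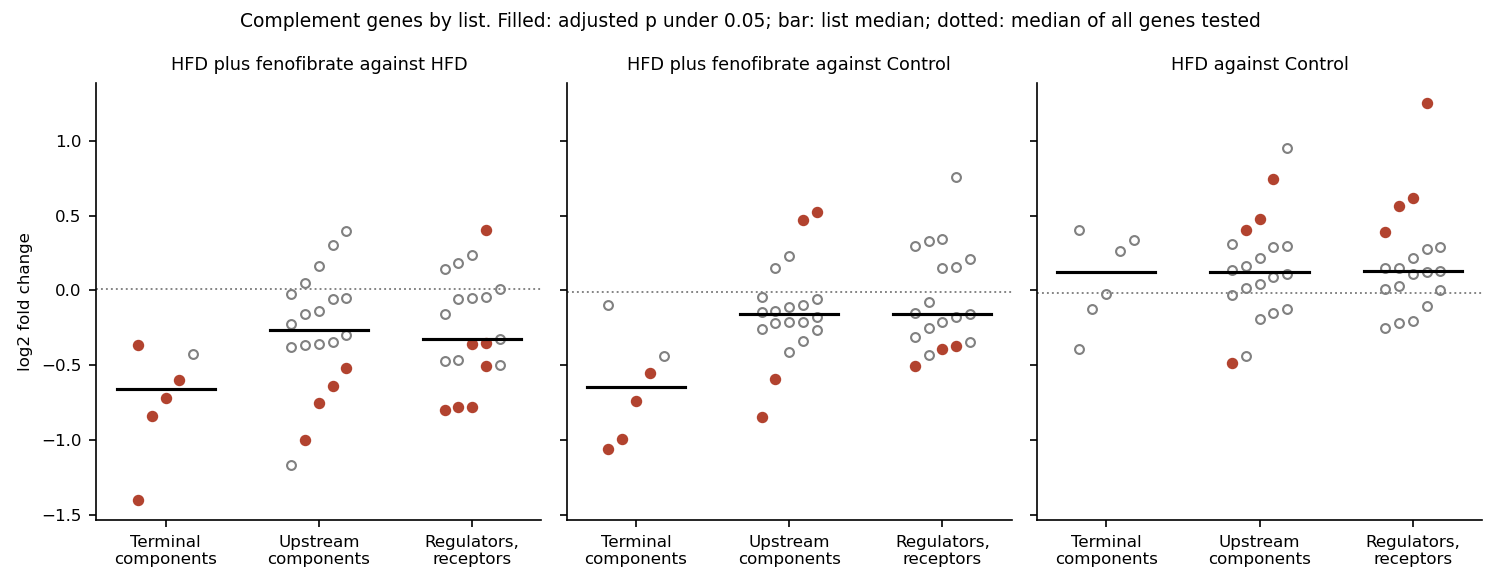
Log2 fold changes of the tested complement genes in 3 lists (terminal components, upstream components, regulators and receptors) for each comparison, with filled points for an adjusted p under 0.05, a bar for the list median and a dotted line for the median of all genes tested. For HFD plus fenofibrate against HFD the medians are -0.66, -0.26 and -0.33 in the order of the lists, beside 0.01 for all genes.

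Against Control, 4.86% of all genes tested rose in fenofibrate livers and 4.31% fell. Of 20 upstream components tested, 2 rose, C1rl (0.52 ± 0.08, adjusted p = 0.000875) and C4b (0.47 ± 0.14, adjusted p = 0.0415), and 2 fell, C2 (-0.85 ± 0.15, adjusted p = 0.00279) and Colec11 (-0.59 ± 0.15, adjusted p = 0.0264). Of 19 regulators and receptors tested, 3 fell, among them Cfhr2 (-0.51 ± 0.15, adjusted p = 0.0408) and Cfi (-0.37 ± 0.10, adjusted p = 0.0316), and 0 rose. C4b, Colec11, Cfhr2 and Cfi are near the threshold: each missed it without Control library 2, 3 or 4 and without fenofibrate library 1, 3 or 4. Cfhr2 also missed it without Control library 1 or HFD library 2 or 3, and C4b without HFD library 2 or 4. Their adjusted p reached 0.124 for C4b, 0.0900 for Colec11, 0.128 for Cfhr2 and 0.103 for Cfi in these fits. Without fenofibrate libraries 1 and 3 the adjusted p was 0.213 for C4b, 0.277 for Colec11, 0.406 for Cfhr2 and 0.263 for Cfi, while C1rl (0.53, adjusted p = 0.0151) and C2 (-0.93, adjusted p = 0.0263) still passed. The medians were -0.16 for both lists, -0.65 for the 6 terminal genes and -0.01 for all genes tested. C2 had a low level, with means of 5.53 ± 0.940 CPM in HFD plus fenofibrate, 7.13 ± 0.785 CPM in HFD and 9.98 ± 1.35 CPM in Control. C4b has a near-identical copy, C4a, with which its reads may be shared.

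In HFD against Control, 6.13% of all genes tested rose and 6.64% fell. Of 20 upstream components tested, 3 rose, Mbl1 (0.74 ± 0.15, adjusted p = 0.00380), C1rl (0.48 ± 0.08, adjusted p = 0.00100) and C1s1 (0.40 ± 0.10, adjusted p = 0.0166), and C2 fell (-0.48 ± 0.15, adjusted p = 0.0442). C2 missed the threshold in 9 of 12 fits without a single library, passing only without Control library 4, HFD library 3 or fenofibrate library 2, and its adjusted p reached 0.121. C1s1 missed it without HFD library 2 (adjusted p = 0.0510). Of 19 regulators and receptors tested, 4 rose and 0 fell. Cd59b rose by 1.25 ± 0.26 (adjusted p = 0.00495) and Cd59a by 0.56 ± 0.10 (adjusted p = 0.00242); both encode CD59, the membrane protein that stops C9 from completing the pore, and their reads may be shared. C4bp rose by 0.62 ± 0.14 (adjusted p = 0.00951). Cd59a averaged 41.8 ± 3.99 CPM in HFD plus fenofibrate, 53.4 ± 4.62 CPM in HFD and 36.1 ± 3.98 CPM in Control, while Cd59b averaged 2.68 ± 0.664 CPM in HFD plus fenofibrate, 3.76 ± 0.235 CPM in HFD and 1.58 ± 0.639 CPM in Control. The medians were 0.12 for the upstream list, 0.13 for the regulators, 0.12 for the 6 terminal genes and -0.02 for all genes tested.

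The genes next to the 6 along the chromosomes were given for the first comparison. AI182371, which ends 22.6 kb upstream of Hc and whose protein is annotated in the deposited tables by its similarity to C5, fell by 0.36 ± 0.10 (adjusted p = 0.0264), beside 0.36 for Hc. The adjusted p of AI182371 ran from 0.0652 to 0.0921 without HFD library 1 or 2 or without fenofibrate library 1 or 3, and its log2 fold change was -0.26 (adjusted p = 0.323) without both of these fenofibrate libraries. On the other side of Hc, Traf1 had a log2 fold change of 0.19 ± 0.55 (adjusted p = 0.845). Dab2, 4.62 kb before C9, had 0.09 ± 0.14 (adjusted p = 0.689), and Fyb, 81.1 kb beyond it, had 0.32 ± 0.32 (adjusted p = 0.527). Fyb2, 37.1 kb from C8a, had 0.14 ± 0.22 (adjusted p = 0.714). Next to C8b and C6, Gm12715 had 1.01 ± 0.37 (adjusted p = 0.0801) and Oxct1 0.66 ± 0.25 (adjusted p = 0.0814), and next to C8g, Ptgds had -1.11 ± 0.49 (adjusted p = 0.133). Apart from C7 and the 6 genes themselves, AI182371 and Fbxw5 were the only neighbours given here that passed, and neither passed without fenofibrate libraries 1 and 3. With all libraries, 6.59% of all genes tested fell and 6.89% rose.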

How the data were processed

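RNA of 12 livers was measured. Reads were processed with HISAT2 2.0.5, StringTie 1.3.2d and HTSeq 0.6.0, per the submitters' processing notes. Their settings, strand included, are not stated there. The deposited tables hold raw whole-number counts per gene, per the file headers, for 8 libraries each, and the HFD libraries stand in both. Mean signal per gene (a base mean), fold change as a ratio, log2 fold change and p-values are the authors' own deposited values, per the file headers, which name no test. The labels list mm8 and mm9, but 92.5% of 25113 identifiers shared with GENCODE M21 have its GRCm38 position.

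The tables were joined by identifier (22657 genes in both, 1389 and 1118 in only 1 of them, given counts of 0 in the other). Counts were fitted with edgeR 4.0.16 in R 4.3.3: filterByExpr (13477 of 25164 genes kept, all 6 members and C7 among them), TMM factors of 0.884 to 1.161, 1 coefficient per group over 12 libraries, and the quasi-likelihood test. The SE is the log2 fold change divided by the square root of F. Exon lengths are from GENCODE M21. Ratios were compared with exact permutation tests in scipy 1.17.1 under Python 3.11.15. The steps were tested on simulated data. Libraries of a group differed by a chi-square per gene of 15.1 to 42.2, above counting error.

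The members and lists were chosen with earlier results of these data known. Named were all members and C7, up to 4 passing genes per list and comparison with the largest change, the 3 most similar genes and the nearest tested neighbours; a few genes that the rule names are not reported here. Alternatives were DESeq2 1.42.0 (test and size factors), other filters, a fit without the 20 most abundant genes, fits on 8 libraries, a replicate block, and each library left out. Leaving out fenofibrate libraries 1 and 3 was chosen after seeing the data.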

Additional observations from a re-analysis of the deposited data

Results flagged for a closer look

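The level of C8g in Control had 1 library apart from the rest. Control library 1 stood at 279 CPM and the other 3 Control libraries at 357, 372 and 371 CPM, so that the gap below them was 0.834 of the group's range, past the critical value of Dixon's test for 4 libraries. Of 42 groups of libraries examined, only this one was past the critical value, and chance gives such a gap in about 1 in 20 groups. Without Control replicate 1 the log2 fold change of C8g in HFD against Control was 0.33, against 0.40 with it, and it did not pass the test in either case.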

How the results depend on the processing

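Numbers of genes below are those that fell or rose by an adjusted p under 0.05. For the 6 terminal genes in HFD plus fenofibrate against HFD, 5 fell in each alternative run except without fenofibrate libraries 1 and 3 (2 fell), with the replicate block (6 fell) and with single libraries left out (4 to 6). Against Control 4 fell, but 3 without C6 when only the 8 libraries compared were used or fenofibrate libraries 1 and 3 were left out, and 3 to 5 with single libraries left out. In HFD against Control, where 0 passed, 1 fell (C8b) with DESeq2 or with the replicate block and 0 to 1 with single libraries left out, and 1 rose with DESeq2 (Hc), with only the 8 libraries compared (C8g) or without fenofibrate libraries 1 and 3 (C8g). Replicate numbers were not taken as pairs, since same-numbered libraries had r from -0.15 to 0.12 after group means were removed. With the block, C6 in HFD plus fenofibrate against HFD had an adjusted p of 0.0321, and C8b in HFD against Control one of 0.0431. Over all genes in HFD plus fenofibrate against HFD, single libraries left out gave 328 to 1206 that fell and 282 to 1210 that rose, and both libraries left out gave 69 and 55. Against Control these were 310 to 852 that fell and 383 to 858 that rose, and 158 and 215. In HFD against Control they were 554 to 930 that fell and 550 to 832 that rose. Among upstream components in HFD against Control, 2 fell with DESeq2, 0 without the low-count filter, with only the 8 libraries, with the 20 most abundant genes left out or without fenofibrate libraries 1 and 3, and 0 to 2 with single libraries left out. With fenofibrate against Control, 1 rose with only the 8 libraries, with the replicate block and without fenofibrate libraries 1 and 3, and 1 fell in the last of these; single libraries left out gave 1 to 2 that rose and 1 to 3 that fell. With fenofibrate against HFD, 1 upstream component rose with DESeq2 or only the 8 libraries and 0 to 1 with single libraries left out, and 1 fell without fenofibrate libraries 1 and 3. Among regulators with fenofibrate against HFD, 0 rose with DESeq2 size factors, without the filter, with the replicate block, with the 20 genes left out or without fenofibrate libraries 1 and 3, where 1 fell; single libraries left out gave 0 to 1 that rose. Against Control, 1 regulator fell without the filter, with the 8 libraries or with the replicate block, 0 fell without fenofibrate libraries 1 and 3, and single libraries left out gave 0 to 3 that fell and 0 to 1 that rose; 2 rose with DESeq2 and 1 with the 20 genes left out. Directions that turned belonged to values near 0: C8a in HFD against Control (-0.050 to 0.026 with single libraries left out), Dab2 (-0.024 to 0.24), Fyb2 (-0.0026 to 0.30, and -0.12 without fenofibrate libraries 1 and 3) and Traf1 (-0.019 to 0.47) with fenofibrate against HFD, C1s1 with fenofibrate against Control (0.028 without fenofibrate libraries 1 and 3), and the log2 ratio of C9 to C8b with fenofibrate against Control (-0.18 to 0.070). The cause was not tested. Ratios could not pass with a library left out, since 4 against 3 libraries do not allow it. C7 rests on 15 to 60 reads a library, so counting error limits its values, as it does those of neighbours with few reads such as Traf1.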

Other observations

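The genes on both sides of the terminal step were named here for their role, after their values were seen. C3, the central component whose fragment C3b completes the C5 convertase, averaged 5714 ± 685 CPM in HFD plus fenofibrate, 4341 ± 654 CPM in HFD and 5897 ± 1156 CPM in Control (SD, n = 4). Its log2 fold change was 0.40 ± 0.15 in HFD plus fenofibrate against HFD (adjusted p = 0.0857) and -0.44 ± 0.15 in HFD against Control (adjusted p = 0.0660), so neither passed edgeR's quasi-likelihood test. C3 thus stood on the other side of 0 from the 6 terminal genes with fenofibrate, and whether it differs from them was not tested. The chains of C1q, made by macrophages, had log2 fold changes of -0.16 for C1qa, -0.14 for C1qb and -0.30 for C1qc with fenofibrate against HFD (adjusted p = 0.583, 0.651 and 0.304). The Kupffer cell and macrophage markers summed to 284 to 531 CPM in HFD plus fenofibrate, 226 to 603 CPM in HFD and 314 to 408 CPM in Control.

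The soluble inhibitors of the terminal complex, vitronectin (Vtn) and clusterin (Clu), were abundant and did not pass the test. Vtn averaged 2324 ± 216 CPM in HFD plus fenofibrate, 2412 ± 98.4 CPM in HFD and 2590 ± 112 CPM in Control. Clu averaged 1696 ± 136 CPM in HFD plus fenofibrate, 1745 ± 59.7 CPM in HFD and 2014 ± 167 CPM in Control. With fenofibrate against HFD their log2 fold changes were -0.05 ± 0.10 and -0.04 ± 0.10 (adjusted p = 0.744 for Vtn and 0.812 for Clu). The C5a receptor genes C5ar1 and C5ar2 were near the limit of detection, with means of 1.46 ± 0.425 and 1.93 ± 0.904 CPM in HFD plus fenofibrate, 1.29 ± 0.644 and 1.77 ± 0.399 CPM in HFD, and 1.16 ± 0.466 and 2.05 ± 0.375 CPM in Control, and neither passed in any comparison.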
